A study of Mus musculus with 12 samples.

Results

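The comparison described here set adult enterocytes (AE), sorted from the villus, against Lgr5-positive intestinal stem cells (ISC) of the crypt base in old mice. RNA-seq counts of the 3 old AE and the 3 old ISC libraries were used, and every gene with a total of at least 10 reads over these 6 libraries entered, which was 15855 of the 34245 genes in the table. A further 15252 genes had no read in any of the 6 libraries. The groups were taken from the names of the columns, which carry the cell type, the age class and a library code of 1, 3 or 5, and the libraries are called by that code. In 8 of the 12 sample titles this code contradicts the wording that follows it, so that the column names alone decide which libraries are AE or ISC, old or young. The cell types were set against marker genes below, and the ages rest on the column names.

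All mice were C57BL/6 males carrying the Lgr5-EGFP-IRES-CreERT2 knock-in, in which the Lgr5 locus drives green fluorescent protein (GFP) in stem cells. ISC were sorted from dissociated crypts as live cells with high GFP, and AE from villi as live cells with high Epcam, a pan-epithelial surface protein, that lacked the blood cell marker CD45 and the endothelial marker CD31. The AE gate therefore holds any villus epithelial cell, whereas no surface stain was used for ISC. Young mice, sorted the same way, gave 3 AE and 3 ISC libraries and serve below as a second comparison, in which no library is shared with the old one.

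Stem cells at the crypt base divide under Wnt and Notch signals and give rise to progenitors that divide further, leave the crypt and stop cycling. As enterocytes move up the villus they build a brush border of actin-filled microvilli, load it with digestive enzymes and nutrient carriers, and package absorbed fat into chylomicrons. Goblet, enteroendocrine, tuft and Paneth cells are the secretory or sensory cells of the same epithelium.

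The column names were first set against 5 marker genes of the cell types. Lgr5, the R-spondin receptor that defines these stem cells (chr10:115450311-115587780 on GRCm38), had 114, 100.1 and 147 CPM (reads scaled for library size and composition) in ISC libraries 1, 3 and 5 and 0.545, 1.32 and 0.932 in the AE libraries. Olfm4, a secreted glycoprotein of crypt base cells (chr14:80000302-80021930), had 3489, 4247 and 5493 CPM in ISC and 23.6, 60.3 and 42.1 in AE. Both were far lower in every AE library than in any ISC library, with a log2 fold change of AE over ISC of -7.00 (SE 0.30, edgeR quasi-likelihood test, FDR = 3.2e-07) for Lgr5 and -6.71 (SE 0.44, FDR = 1.3e-06) for Olfm4.

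Vil1, the actin-bundling villin of microvilli (chr1:74409376-74435559), was at 420.1, 562 and 553 CPM in ISC and 4639, 5095 and 5854 in AE. Apoc3, an apolipoprotein of chylomicrons (chr9:46232933-46235636), was at 9.96, 31.1 and 12.4 CPM in ISC and 1715, 1700.0 and 1973 in AE. Sis, the sucrase-isomaltase of the brush border (chr3:72888557-72967863), was at 96.0, 656 and 405 CPM in ISC and 7070.2, 7356 and 6987 in AE. The groups did not overlap for any of these genes, and the log2 fold changes were 3.34 (SE 0.27) for Vil1, 6.66 (SE 0.49) for Apoc3 and 4.21 (SE 0.61, FDR = 0.00019) for Sis. The ISC libraries differed most for Sis, for which library 1 was lowest and library 3 highest.

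**Figure D1:**
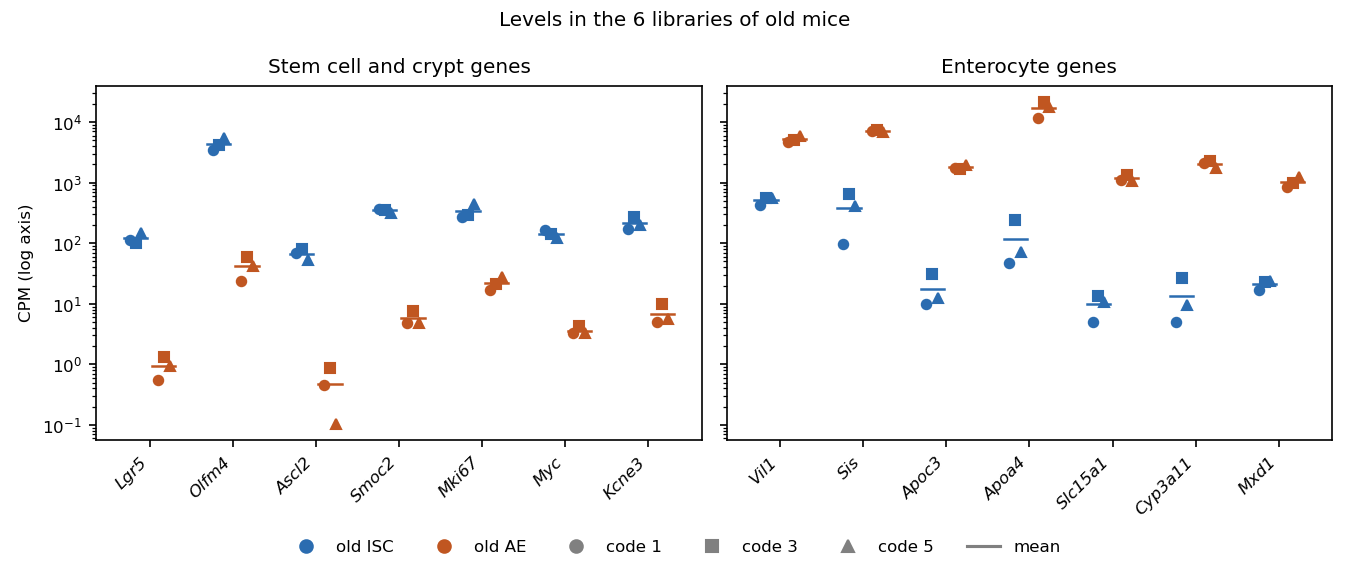
CPM on a log axis of 7 stem cell or crypt genes and 7 enterocyte genes in the 3 old ISC (blue) and 3 old AE (orange) libraries, with the symbol giving the library code and the bar the mean. The 2 cell types are separated for every gene shown, and the ISC libraries spread more than the AE libraries for enterocyte genes such as Sis and Apoa4.

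The total count was between 12728661 and 26796461 in the 6 old libraries and between 11893817 and 15189033 in the young ones, except for young AE library 3 with 110794420. The 10 most abundant genes took 4.47% to 5.15% of the counts in old ISC and 10.8% to 13.1% in old AE, and the composition factors used in scaling were 1.26 to 1.35 in ISC and 0.73 to 0.80 in AE. Reads of mitochondrially encoded genes made up 0.945% to 2.25% of the old ISC and 3.56% to 6.67% of the old AE libraries. Enterocyte transcripts within ISC were not even: of 92 brush border, transport, lipid and xenobiotic genes called higher in AE, 74 were highest among the ISC libraries in library 3, 16 in library 5 and 2 in library 1. The part of this unevenness in the differences below was not tested. In bulk RNA, fewer cells of a type and less RNA per cell cannot be told apart.

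AE and ISC differed over most of the expressed genome. Of the 15855 genes tested, 10161 (64.1%) were called at FDR 0.05. Of all tested, 4754 (30.0%) were called higher in AE and 5407 (34.1%) lower, and the libraries of the groups did not overlap for 5057 genes with AE above (31.9%) and 6036 with AE below (38.1%). The median log2 fold change was -0.13 over all genes, 1.75 over those called higher and -1.77 over those called lower. The change was at least 2-fold for 3545 genes called higher and 4118 called lower, at least 8-fold for 1271 and 1390, and at least 32-fold for 450 and 441. The share called grew with level, from 35.8% of genes with a mean under 1 CPM to 78.7% of those over 100 CPM, and in the latter class 1292 genes were higher in AE and 443 lower. In all, 439 genes called higher in AE had no more than 3 reads in each ISC library, and 609 called lower had no more than 3 in each AE library.

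**Figure D2:**
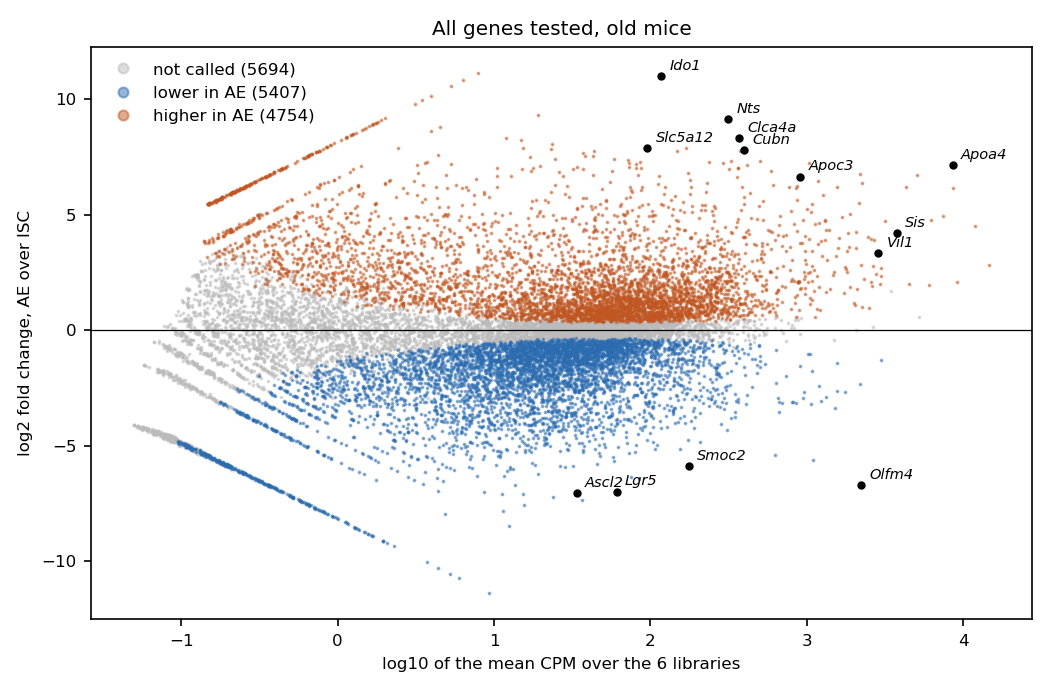
Log2 fold change of AE over ISC against the log10 of the mean CPM for the genes tested in old mice, with 4754 genes called higher (orange), 5407 lower (blue) and the rest grey. Named dots show that stem cell genes such as Lgr5 and Olfm4 lie at the lower edge and Ido1, Nts and Apoa4 at the upper edge, and the straight lines at the left are genes with reads in few libraries.

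The most abundant transcripts were of different kinds in the 2 cell types. In AE the 10 genes with the largest share of counts together took 11.5%, and were Apoa1 and Apoa4 (chylomicron apolipoproteins), Fabp2 (a fatty acid carrier), Anpep (aminopeptidase N), Selenop (a selenium carrier), Fcgbp and Zg16 (goblet cell products) and the mitochondrial mt-Co1, mt-Cytb and mt-Nd1. In ISC they took 4.55%, and were Olfm4, Pigr (the carrier of secreted antibodies), Cps1 (a mitochondrial urea cycle enzyme), the translation genes Eef2, Eef1a1 and Rpl4, Hsp90ab1 (a chaperone), Atp5b (ATP synthase), mt-Co1 and mt-Cytb. Per kilobase of exon, which was not computed for the mitochondrial genes, Fabp2 had a mean of 14815 RPKM in AE against 479 in ISC, Apoa1 13713 against 189 and Apoa4 9385 against 65.6. Anpep had 2919.9 RPKM in AE and 105 in ISC, Apoc3 1771 and 17.6, Vil1 1463 and 144 and Sis 956 and 51.7. In ISC, Olfm4 had 1489 RPKM and Lgr5 11.7, against 14.2 and 0.0909 in AE.

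The stem cell program was lower in AE throughout. All 20 crypt base genes tested were called lower, beside 34.1% of all genes, with log2 fold changes of -7.82 to -1.55 and a median of -3.94. Since the ISC were sorted on a reporter at the Lgr5 locus, Lgr5 checks the sort. Ascl2, the transcription factor that maintains stem cell identity, was at 69.7, 79.7 and 52.3 CPM in ISC and 0.454, 0.882 and 0.104 in AE, a log2 fold change of -7.06 (SE 0.39, FDR = 6.1e-07). Smoc2, a secreted matrix protein, was at 369, 355 and 317 CPM in ISC and 4.90, 7.68 and 4.77 in AE, a log2 fold change of -5.90 (SE 0.25). For both genes all ISC libraries were high and all AE libraries close to the detection limit or a few CPM.

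Weaker falls were seen for some other members of the crypt base list. Rnf43, which removes Wnt receptors from the cell surface, had 151, 120.4 and 178 CPM in ISC and 49.3, 55.7 and 48.9 in AE, the smallest change of the list (log2 fold change -1.55, SE 0.18). Axin2, a feedback inhibitor and target of Wnt, changed by -2.97 (SE 0.26) and Sox9, a transcription factor of crypt cells, by -3.28 (SE 0.17).

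Genes of the cell cycle fell as a block. All 36 tested were called lower, beside 34.1% of all genes. Changes ran from -5.65 for Mcm3 to -1.29 for Gmnn, with a median log2 fold change of -3.94. The proliferation antigen Mki67 had 271, 298 and 449 CPM in ISC and 16.8, 21.2 and 28.0 in AE. Top2a, the topoisomerase that untangles chromosomes, had 403, 319 and 475 CPM in ISC and 13.5, 13.4 and 14.6 in AE, a log2 fold change of -4.85 (SE 0.22, FDR = 3.4e-07). The replicative helicase subunits Mcm3 and Mcm5 changed by -5.65 (SE 0.31) and -5.30 (SE 0.22), and the mitotic kinase gene Aurkb by -5.02 (SE 0.20). The groups did not overlap, and 386 to 429 CPM of the summed list remained in AE against 4020 to 4718 in ISC.

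Genes that oppose the cycle mostly went the other way, though not uniformly. Of 16 tested, 12 were called higher (75%, beside 30.0% of all genes) and 2 lower (12.5%, beside 34.1%), with a median log2 fold change of 1.15. Mxd1, which antagonises Myc, was at 16.9, 23.3 and 24.0 CPM in ISC and 850.1, 999 and 1235 in AE (log2 fold change 5.59, SE 0.27, FDR = 4.0e-07). Cdkn1a, the cyclin-dependent kinase inhibitor p21, was at 32.7, 37.2 and 27.4 CPM in ISC and 355, 406 and 407 in AE (3.59, SE 0.19). Klf4, a transcription factor of postmitotic epithelium, rose by 4.07 (SE 0.24). By contrast Cdkn2c, another kinase inhibitor, fell by 2.02 (SE 0.21), and Cdkn1b, at 88.0, 86.4 and 121 CPM in ISC and 71.1, 74.2 and 71.5 in AE, was called lower with all libraries (FDR = 0.041) and lost the call when any of ISC library 5 or the AE libraries was left out (FDR = 0.084 to 0.10, in a range of 0.017 to 0.15 over all alternatives).

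The supply lines of growth were lower too. All 26 ribosome biogenesis genes were called lower (median log2 fold change -3.68), and 23 of 24 nucleotide and one-carbon synthesis genes (median -3.89). Over all genes 34.1% were called lower. Ncl, the nucleolar protein nucleolin, had 1411, 1230.4 and 1029 CPM in ISC and 107, 111 and 96.4 in AE. Gar1, a subunit of the particles that modify ribosomal RNA, changed by -4.90 (SE 0.21) and Fbl, the methyltransferase fibrillarin, by -4.72 (SE 0.29). Ctps, which makes CTP, changed by -5.16 (SE 0.30) and Impdh2, which commits purines to GTP, by -4.98 (SE 0.25).

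Chromatin genes divided along similar lines. Of 26 tested, 18 were called lower (69.2%, beside 34.1% of all genes) and 5 higher (19.2%, beside 30.0%). The median log2 fold change was -1.53. Uhrf1, which guides maintenance DNA methylation, was at 109.7, 70.0 and 101 CPM in ISC and 3.09, 1.76 and 1.45 in AE (-5.46, SE 0.30), and its partner Dnmt1 changed by -3.65 (SE 0.21). The de novo methyltransferase gene Dnmt3a had 52.5, 42.1 and 60.6 CPM in ISC and 37.9, 47.4 and 55.9 in AE, with overlapping groups (-0.14, FDR = 0.55). The histone demethylase genes Kdm6b and Kdm5b rose by 1.63 (SE 0.25) and 0.94 (SE 0.18). The count of members called higher was 2 without ISC library 1 or ISC library 3, and 3 without AE library 3 or AE library 5.

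To show the sequence just upstream of genes that fell, the 250 bases before the RefSeq start are printed for 2 stem cell genes and 2 replication genes, on the gene's own strand of GRCm38.p6. They lie at chr14:80000052-80000301 on the plus strand for Olfm4, chr7:142969265-142969514 on the minus strand for Ascl2, chr11:99024190-99024439 on the minus strand for Top2a and chr7:102441445-102441694 on the plus strand for Rrm1, the large subunit of ribonucleotide reductase (log2 fold change -4.20, SE 0.20). Capitals mark matches in either orientation to the letters CCAAT, bound by NFY, and TTCCCGC, bound by E2F.
Olfm4: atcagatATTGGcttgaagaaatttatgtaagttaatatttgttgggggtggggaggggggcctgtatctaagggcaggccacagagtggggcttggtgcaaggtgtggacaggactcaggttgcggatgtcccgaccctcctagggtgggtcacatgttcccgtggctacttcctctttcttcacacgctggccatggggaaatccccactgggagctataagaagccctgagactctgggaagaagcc
Ascl2: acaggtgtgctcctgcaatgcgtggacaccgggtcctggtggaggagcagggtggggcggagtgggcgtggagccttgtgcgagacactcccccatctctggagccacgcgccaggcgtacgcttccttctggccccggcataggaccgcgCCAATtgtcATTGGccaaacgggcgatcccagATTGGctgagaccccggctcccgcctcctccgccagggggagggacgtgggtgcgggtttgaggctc
Top2a: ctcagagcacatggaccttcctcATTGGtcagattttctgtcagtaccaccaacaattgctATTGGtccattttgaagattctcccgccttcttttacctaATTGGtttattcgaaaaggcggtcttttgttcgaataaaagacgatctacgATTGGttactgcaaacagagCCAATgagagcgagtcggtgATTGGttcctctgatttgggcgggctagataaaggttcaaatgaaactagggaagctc
Rrm1: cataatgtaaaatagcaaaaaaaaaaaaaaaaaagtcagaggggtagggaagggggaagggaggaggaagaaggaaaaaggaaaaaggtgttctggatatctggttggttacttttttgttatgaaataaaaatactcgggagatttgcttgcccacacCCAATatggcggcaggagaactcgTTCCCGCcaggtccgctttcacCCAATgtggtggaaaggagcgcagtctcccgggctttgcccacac

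The CCAAT letters occurred 6 times upstream of Top2a and 3 times upstream of Ascl2. Shares of promoters were counted in a longer window, from 250 bases before to 50 bases after the start. It held the CCAAT letters for 21 of the 28 cell cycle genes with a RefSeq promoter (75%). These letters were present for 38.7% of all 10257 genes tested that had a promoter, for 41.3% of those called lower and for 37.7% of those called higher. The E2F letters were present for 8.46% of all promoters, 11.8% of those of genes called lower, 13% of those lower by at least 8-fold and 3.71% of those higher by at least 8-fold. Among cell cycle genes they were found for 5 of 28 (17.9%). The letters CTTTGAT, bound by TCF factors of the Wnt pathway, were present for 2.60% of all promoters and 3.44% of those lower by at least 8-fold. These are descriptions of letters in a fixed window, and no binding was measured.

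Wnt pathway genes did not move as a group. Of 25 tested, 10 were called lower (40%, beside 34.1% of all genes) and 7 higher (28%, beside 30.0%). The median log2 fold change of -0.11 was close to the all-gene median of -0.13, and members ran from -5.30 to 6.51. Myc, the growth regulator and Wnt target, was at 165, 143 and 122 CPM in ISC and 3.27, 4.24 and 3.31 in AE (-5.30, SE 0.21, FDR = 3.2e-07). The transcription factor genes Tcf7 and Tcf7l2 went in opposite directions, with Tcf7 at 26.3, 27.7 and 22.7 CPM in ISC and 2.54, 2.21 and 2.49 in AE (-3.40, SE 0.20) and Tcf7l2 at 33.3, 24.4 and 30.4 CPM in ISC and 60.5, 48.97 and 63.7 in AE (0.97, SE 0.17). Co-receptor gene Lrp5 had overlapping groups, with a log2 fold change of 0.07 (FDR = 0.71). Ctnnb1, beta-catenin, was at 673, 769.8 and 795 CPM in ISC and 901, 1090.3 and 1035 in AE, which missed the threshold (0.44, FDR = 0.077). With paired libraries blocked its FDR was 0.035, and over all alternatives it ranged from 0.0020 to 0.23. Only 4 members were called higher without ISC library 3, AE library 3 or AE library 5, and the list median was 0.074 without ISC library 5, -0.052 without ISC library 1, -0.069 without AE library 5 and -0.182 without AE library 3.

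Several Notch pathway genes were lower in AE. Notch1 was at 83.4, 89.5 and 156 CPM in ISC and 3.18, 6.71 and 4.66 in AE (log2 fold change -4.49, SE 0.34), Notch2 changed by -3.90 (SE 0.32) and the target Hes1 by -2.63 (SE 0.18). The Notch-modifying glycosyltransferase gene Lfng changed by -3.45 (SE 0.24). Numb, an inhibitor of Notch, rose by 1.75 (SE 0.17), whereas the ligand gene Dll1 had overlapping groups (-0.11, FDR = 0.62). In all, 10 of 18 tested were called lower (55.6%, beside 34.1% of all genes) and 3 higher (16.7%, beside 30.0%), with a median of -0.78, and 1 was called higher without ISC library 3 or AE library 1.

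BMP signals oppose stem cell renewal along the crypt to villus axis. Of 21 genes tested, 10 were called higher (47.6%, beside 30.0% of all genes) and 4 lower (19%, beside 34.1%), with a median log2 fold change of 0.41. Log2 fold changes in the list ran from -5.15 to 3.21. Bmp2, a ligand, was at 4.90, 4.90 and 3.23 CPM in ISC and 29.2, 43.8 and 28.8 in AE (2.96, SE 0.25). The intracellular brakes Smad6 and Smad7 rose by 1.89 (SE 0.15) and 2.47 (SE 0.21), and the targets Id1 and Id3 by 0.75 (SE 0.18) and 1.00 (SE 0.18). Smad4, the common mediator, was at 114, 130.1 and 157 CPM in ISC and 138, 144 and 126 in AE, with overlapping groups (0.03, FDR = 0.89).

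Eph receptors and ephrins position cells along the same axis by repulsion. All 14 tested were called, 9 lower (64.3%, beside 34.1% of all genes) and 5 higher (35.7%, beside 30.0%). The receptor genes Ephb3, Ephb4 and Ephb2 changed by -5.31 (SE 0.20), -4.00 (SE 0.19) and -3.12 (SE 0.16), and Ephb3 was at 93.1, 80.1 and 101 CPM in ISC against 2.36, 1.94 and 2.59 in AE. The ligand genes Efnb2 and Efnb1 rose by 2.24 (SE 0.26) and 0.68 (SE 0.16), with Efnb2 at 14.9, 30.2 and 28.4 CPM in ISC and 111, 128 and 108 in AE. Epha1 and Epha2, receptors of the other class, rose by 3.11 (SE 0.19) and 2.98 (SE 0.23).

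Transcription factors of the intestinal lineages were called about as often as genes in general. Of 38 tested, 13 were called higher (34.2%, beside 30.0% of all genes), 12 lower (31.6%, beside 34.1%) and 13 neither. The median log2 fold change was 0.10, and 0.0059 without AE library 3, 0.035 without ISC library 1 and 0.16 without AE library 5. Hnf4a, a master regulator of enterocyte genes, was at 915, 949.7 and 1027 CPM in ISC and 729, 994 and 846 in AE, with overlapping groups (-0.17, SE 0.21, FDR = 0.49). Its paralog Hnf4g was at 42.0, 75.6 and 72.7 CPM in ISC and 360.1, 456 and 411 in AE (2.69, SE 0.25, FDR = 9.9e-06). Cdx2, which specifies intestine, was close in both (-0.35, FDR = 0.13, 0.048 when paired libraries were blocked and 0.048 to 0.34 over all alternatives), and its relative Cdx1 changed by -1.11 (SE 0.17).

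Log2 fold changes in the transcription factor list ran from -10.75 to 6.20. Large rises included Creb3l3 (4.93, SE 0.50), Maf (4.82, SE 0.31) and Prdm1 (4.37, SE 0.33). Creb3l3, a regulator of lipid genes, was at 29.7, 78.8 and 20.3 CPM in ISC and 1151, 1514 and 1259 in AE. Maf was at 20.1, 40.4 and 38.6 CPM in ISC and 944, 820.4 and 1036 in AE. Myb, a factor of proliferating progenitors, fell from 206, 189.7 and 229 CPM in ISC to 5.72, 6.88 and 5.18 in AE (-5.13, SE 0.20). Gata4, a factor of proximal small intestine, was at 161, 182 and 132 CPM in ISC and 178, 212 and 149.9 in AE (0.18, FDR = 0.42), so that the ranges of the groups overlapped.

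The brush border enzymes were higher in AE without exception. All 18 tested hydrolases were called higher, beside 30.0% of all genes, with a median log2 fold change of 4.77. The changes ran from 2.83 for Mgam to 6.76 for Lct, apart from Tmprss15, and the summed level was 1072 to 3102 CPM in ISC and 50430 to 56560 in AE. Lct, the lactase, was at 10.5, 53.7 and 55.5 CPM in ISC and 3365, 4738 and 4873 in AE (6.76, SE 0.65, FDR = 1.3e-05). Anpep was at 275, 659 and 369.8 CPM in ISC and 12541, 12034 and 11647 in AE (4.80, SE 0.41). Every AE library exceeded every ISC library by a wide margin. Other large rises were Ace, the angiotensin-converting enzyme (6.40, SE 0.43), and Treh, the trehalase (6.31, SE 0.50). Tmprss15, the enteropeptidase that activates trypsin, had no read in any ISC library and 3.72, 14.8 and 2.18 CPM in AE.

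The scaffold of the microvillus rose less evenly. Of 19 genes tested, 17 were called higher (89.5%, beside 30.0% of all genes) and 1 lower (5.26%, beside 34.1%). The median log2 fold change was 3.34. Pdzk1, which anchors transporters, was at 2.97, 7.99 and 6.54 CPM in ISC and 757, 835 and 871 in AE (7.15, SE 0.40, FDR = 6.1e-07). The intermicrovillar adhesion genes Cdhr2 and Cdhr5 rose by 4.22 (SE 0.27) and 3.98 (SE 0.29), the actin bundlers Espn and Pls1 by 4.29 (SE 0.29) and 3.89 (SE 0.27). The motor gene Myo1d rose by 0.99 (SE 0.18). Actn1, an actin crosslinker of other cell structures, fell from 178, 164 and 210.2 CPM in ISC to 51.3, 54.6 and 38.7 in AE (-1.93, SE 0.19).

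Most nutrient carriers were higher in AE. Of 24 sugar, peptide and amino acid transporters, 19 were called higher (79.2%, beside 30.0% of all genes) and 4 lower (16.7%, beside 34.1%). The median log2 fold change was 3.95. Slc15a1, the apical peptide transporter, was at 4.95, 13.6 and 10.9 CPM in ISC and 1117, 1355 and 1062 in AE (6.92, SE 0.42, FDR = 8.7e-07). Slc5a1, the sodium-coupled glucose carrier, was at 174, 389 and 300.4 CPM in ISC and 4693, 4887 and 4426 in AE (4.02, SE 0.34). Slc6a19, the main apical neutral amino acid carrier, rose by 6.27 (SE 0.42) and the lactate carrier gene Slc5a12 by 7.89 (SE 0.46). The 4 that fell are Slc7a5 and Slc1a5 (-3.40, SE 0.22 and -2.74, SE 0.20), which feed essential amino acids and glutamine to dividing cells, Slc29a1 (-2.18, SE 0.33), a nucleoside carrier, and Slc1a1 (-1.15, SE 0.17), a glutamate carrier. Slc7a5 was at 39.6, 27.8 and 37.8 CPM in ISC and 3.72, 3.00 and 3.21 in AE. Slc2a1, the basal glucose carrier, had overlapping groups (0.37, FDR = 0.17), and was called without AE library 5 (0.58, FDR = 0.028, in a range of 0.028 to 0.50 over all alternatives).

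The same upstream window is printed for 4 genes that rose: 3 brush border hydrolases and Slc7a15, an amino acid transporter gene (1.44, 3.03 and 4.75 CPM in ISC and 268, 274 and 489 in AE, log2 fold change 6.83, SE 0.48). The windows are chr3:72967864-72968113 on the minus strand for Sis, chr1:87101607-87101856 on the minus strand for Alpi, intestinal alkaline phosphatase (4.66, SE 0.67), chr6:40628581-40628830 on the plus strand for Mgam, maltase-glucoamylase (2.83, SE 0.44), and chr12:8599067-8599316 on the minus strand for Slc7a15. Capitals mark matches in either orientation to the TATA box letters TATAAA, to the CCAAT letters above, to CAAAGTCCA, which HNF4 binds, to TTTATGG, which CDX2 binds, and to AGATAAG, which GATA factors bind, and overlapping matches run together.
Sis: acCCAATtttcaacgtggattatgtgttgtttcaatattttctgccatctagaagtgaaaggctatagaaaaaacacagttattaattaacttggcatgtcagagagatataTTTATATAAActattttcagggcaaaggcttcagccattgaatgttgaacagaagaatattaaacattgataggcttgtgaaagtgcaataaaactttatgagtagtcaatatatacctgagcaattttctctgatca
Alpi: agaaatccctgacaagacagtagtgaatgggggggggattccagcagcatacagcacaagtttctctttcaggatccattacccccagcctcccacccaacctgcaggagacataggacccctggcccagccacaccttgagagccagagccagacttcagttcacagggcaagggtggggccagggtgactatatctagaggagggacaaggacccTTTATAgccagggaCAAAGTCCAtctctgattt
Mgam: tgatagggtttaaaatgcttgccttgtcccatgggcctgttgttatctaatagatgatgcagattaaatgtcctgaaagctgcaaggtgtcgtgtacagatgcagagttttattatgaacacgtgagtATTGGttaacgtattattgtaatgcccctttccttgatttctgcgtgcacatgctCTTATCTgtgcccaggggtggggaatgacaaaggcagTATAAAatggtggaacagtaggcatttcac
Slc7a15: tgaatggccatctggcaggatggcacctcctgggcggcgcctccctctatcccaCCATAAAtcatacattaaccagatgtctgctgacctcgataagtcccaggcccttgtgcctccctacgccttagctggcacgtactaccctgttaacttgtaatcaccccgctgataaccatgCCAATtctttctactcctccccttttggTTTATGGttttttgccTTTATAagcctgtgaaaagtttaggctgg

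TATA box letters lay 33, 30 and 29 bases before the start in Alpi, Mgam and Slc7a15, reading toward the start in Mgam and on the opposite strand in Alpi and Slc7a15. In the window from 250 bases before to 50 bases after the start, they were present for 6 of the 11 hydrolase genes with a RefSeq promoter (54.5%). The share was 7.34% of all genes tested, 15.8% of those higher by at least 8-fold and 8.43% of those lower by at least 8-fold. Of 28 cell cycle genes, 0 held them. The HNF4 letters were present for 0.546% of all promoters, 0.989% of those called higher, 2.25% of those higher by at least 8-fold and 0.111% of those lower by at least 8-fold, and for 2 of the 11 hydrolases (18.2%). The GATA letters were present for 1.81% of all, 3.32% of those higher by at least 8-fold and 2.44% of those lower by at least 8-fold. For the CDX letters these shares were 1.68%, 2.39% and 2.11%.

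Genes of fat absorption were higher in AE. All 24 genes were called higher, beside 30.0% of all genes, with log2 fold changes of 2.32 to 7.16 and a median of 3.97. The list summed to 70170 to 93610 CPM in AE against 1699 to 4600 in ISC. Apoa4 was at 47.4, 238 and 72.0 CPM in ISC and 11682, 21377 and 18040.0 in AE (7.16, SE 0.72, FDR = 1.7e-05). Apoc2, the activator of lipoprotein lipase, rose by 7.04 (SE 0.46), and Cd36, a fatty acid receptor, by 5.82 (SE 0.64). Mttp, which loads lipid onto Apob, was at 208, 552 and 254 CPM in ISC and 4833, 5893 and 4434 in AE (3.90, SE 0.41). Fabp1, the liver-type fatty acid carrier, varied most within groups, with 123, 756 and 71.1 CPM in ISC and 4818, 7096 and 2584 in AE (3.93, SE 0.85, FDR = 0.0025), and the groups did not overlap. The cholesterol uptake gene Npc1l1 rose by 4.89 (SE 0.40), and the sterol efflux genes Abcg5 and Abcg8 by 3.74 (SE 0.30) and 3.32 (SE 0.24).

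Fatty acid oxidation and ketone synthesis genes showed smaller rises. Of 23 genes, 17 were called higher (73.9%, beside 30.0% of all genes) and 1 lower (4.35%, beside 34.1%), with a median log2 fold change of 1.29. The number called lower was 2 when paired libraries were blocked or without AE library 3. The peroxisomal genes Acox2 and Acaa1b rose most, by 5.61 (SE 0.60) and 5.64 (SE 0.91). Cpt1a, which admits fatty acids to mitochondria, was at 313, 265 and 229 CPM in ISC and 241, 458 and 171 in AE (0.11, FDR = 0.79). Bdh1, which makes beta-hydroxybutyrate, was at 339, 318 and 251 CPM in ISC and 148, 135.4 and 119.96 in AE (-1.17, SE 0.18).

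Cholesterol synthesis changed little. Of 20 genes, 7 were called higher (35%, beside 30.0% of all genes), 2 lower (10%, beside 34.1%) and 11 neither. The median log2 fold change was 0.11 (0.061 without AE library 1 and 0.063 without ISC library 1). Msmo1, a sterol demethylating enzyme, was at 37.4, 47.7 and 43.1 CPM in ISC and 120.3, 127 and 124 in AE (1.53, SE 0.15), with no overlap of the groups. Sqle, the squalene epoxidase, was at 50.1, 44.96 and 55.02 CPM in ISC and 53.0, 55.1 and 62.3 in AE (0.18, FDR = 0.30). The 2 called lower were Mvd (-0.71, SE 0.17) and Idi1 (-1.24, SE 0.40), enzymes of the mevalonate branch. The number called lower was 5 when paired libraries were blocked, 6 with upper-quartile scaling, and 4 without ISC library 5 or AE library 1.

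Bile acid handling and detoxification rose broadly. Of 10 bile acid and sterol receptor genes, 9 were called higher (90%, beside 30.0% of all genes) and none lower, or 1 lower without ISC library 5. Log2 fold changes ran from -1.21 to 5.63, with a median of 3.95. Fabp6, the ileal bile acid carrier, was at 7.22, 9.42 and 39.1 CPM in ISC and 485, 516 and 480.2 in AE (4.73, SE 0.60), and Slc51a, a subunit of the basolateral bile acid exporter, rose by 3.78 (SE 0.32). Of 32 xenobiotic and retinoid genes, 31 were called higher (96.9%, beside 30.0% of all genes), with a median of 3.28. Cyp3a11, a drug-oxidising cytochrome P450, was at 5.04, 26.6 and 9.50 CPM in ISC and 2132, 2318 and 1732 in AE (7.24, SE 0.64, FDR = 7.0e-06). Rbp2, the retinol carrier of enterocytes, was at 74.7, 456 and 84.6 CPM in ISC and 4862, 3724 and 3209 in AE (4.26, SE 0.70). Lrat, which stores retinol as ester, had overlapping groups (0.33, FDR = 0.30). Cytochrome P450 and carboxylesterase genes have near-identical copies, so reads may have been split between them.

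Ion, iron and calcium genes moved in both directions. Of 26 genes, 17 were called higher (65.4%, beside 30.0% of all genes) and 4 lower (15.4%, beside 34.1%). The median log2 fold change was 1.77. Slc26a6, an apical anion exchanger, was at 22.9, 78.6 and 33.4 CPM in ISC and 699, 779 and 747 in AE (4.05, SE 0.43), and Slc9a3, the apical sodium-proton exchanger, rose by 4.01 (SE 0.52). The largest rise of the list was that of Clca4a, of a family linked to chloride conductance (8.31, SE 0.83). Cftr, the chloride channel, was at 221, 256 and 282 CPM in ISC and 54.3, 72.4 and 50.036 in AE (-2.10, SE 0.20). The potassium channel genes Kcne3 and Kcnq1 also fell, with Kcne3 at 174, 269 and 199 CPM in ISC and 4.99, 9.79 and 5.70 in AE (-4.97, SE 0.30) and Kcnq1 changing by -4.24 (SE 0.22). The iron exporter gene Slc40a1 was at 3.79, 10.2 and 3.41 CPM in ISC and 13.3, 54.1 and 1.55 in AE, with overlapping groups (2.01, FDR = 0.073, and 1.41 with FDR = 0.025 when paired libraries were blocked). Its FDR ranged from 0.0059, without AE library 5, to 0.70.

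Among cell junction genes the largest changes were those of some claudins, which set the permeability of tight junctions. Of 21 tested, 13 were called higher (61.9%, beside 30.0% of all genes) and 3 lower (14.3%, beside 34.1%). The median log2 fold change was 0.81. Cldn8, a claudin of low level, was at 2.35, 4.96 and 5.96 CPM in ISC and 0.182, 0.0882 and 0.207 in AE, where it had 1 or 2 counts per library, so that no fold is given. Cldn2, a pore-forming claudin of the crypt, was at 252, 237 and 238 CPM in ISC and 14.2, 12.97 and 12.7 in AE (-4.19, SE 0.16, FDR = 3.2e-07). Cldn4, a sealing claudin, was at 9.48, 10.4 and 10.4 CPM in ISC and 211, 254 and 376 in AE (4.80, SE 0.25, FDR = 5.1e-07). Cldn7 and Cldn15 rose by 1.13 (SE 0.21) and 1.21 (SE 0.20). On the RPKM scale, the order of mean levels in ISC was Cldn7 (337), Cldn3 (291), Cldn15 (196), Cldn2 (72.8) and Cldn4 (5.56), and in AE Cldn7 (739), Cldn15 (454), Cldn3 (401), Cldn4 (154) and Cldn2 (3.997). Cdh1, the adherens junction cadherin, was at 745, 829.7 and 825 CPM in ISC and 743, 886 and 958 in AE (0.11, FDR = 0.65).

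Some genes of both villus zones were called higher in AE, and others were lower or not called. Of 20 genes of the villus tip, 15 were called higher (75%, beside 30.0% of all genes) and 3 lower (15%, beside 34.1%). Their log2 fold changes ran from -4.12 to 7.77, with a median of 4.43. Of 14 genes of the villus base, 7 were called higher (50%), 1 lower (7.14%) and 6 neither. These ran from -1.31 to 4.12, with a median of 1.11. No base gene was lower without ISC library 5, AE library 3 or AE library 5. Nt5e, which makes adenosine at the cell surface of tip cells, was at 0.877, 0.882 and 0.627 CPM in ISC and 73.0, 63.0 and 118 in AE (6.71, SE 0.32, FDR = 3.7e-07). Ada, which breaks adenosine down, was at 12.03, 9.70 and 8.20 CPM in ISC and 227, 423 and 659 in AE (5.45, SE 0.40). Krt20, a keratin of differentiated cells, rose by 5.50 (SE 0.49). Of base genes, the antimicrobial lectin genes Reg3b and Reg3g rose by 4.12 (SE 0.66) and 2.55 (SE 0.49), with Reg3b at 20.4, 72.3 and 122 CPM in ISC and 1099, 607 and 2031 in AE. Reg1, of the same family, varied by library, at 12.7, 293 and 16.4 CPM in ISC and 488, 1252 and 49.001 in AE (2.48, FDR = 0.11, and 2.88 with FDR = 0.0015 when paired libraries were blocked), and without ISC library 3 its change was 5.33 (FDR = 0.0034). The FDR of Reg1 ranged from 0.0015 to 0.41 over all alternatives.

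Antigen presentation was higher in AE, with a marked ISC library. Of 19 genes, 16 were called higher (84.2%, beside 30.0% of all genes) and none lower (median log2 fold change 2.05). H2-Aa, a class II chain, was at 400.2, 82.0 and 158 CPM in ISC and 1900.3, 1626 and 1694 in AE (3.03, SE 0.50, FDR = 0.00048), so that ISC library 1 was highest of its group and still below every AE library. B2m, the light chain of class I, was at 542, 366 and 404 CPM in ISC and 3031, 2388 and 2230.4 in AE (2.54, SE 0.26). The immunoproteasome gene Psmb8 was at 396, 155 and 106 CPM in ISC and 487, 288 and 267 in AE, with overlapping groups (0.67, FDR = 0.21). Its change was 0.84 (FDR = 0.0032) when paired libraries were blocked and 1.416 (FDR = 0.0039) without ISC library 1, in a range of FDR from 0.0032 to 0.55 over all alternatives. In a fit over the old and young libraries together 10 members were called higher, and the class II genes H2-Aa, H2-Eb1 and Cd74 were not (FDR = 0.059, 0.14 and 0.14). Class I and class II genes have similar copies whose reads may be shared.

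**Figure D3:**
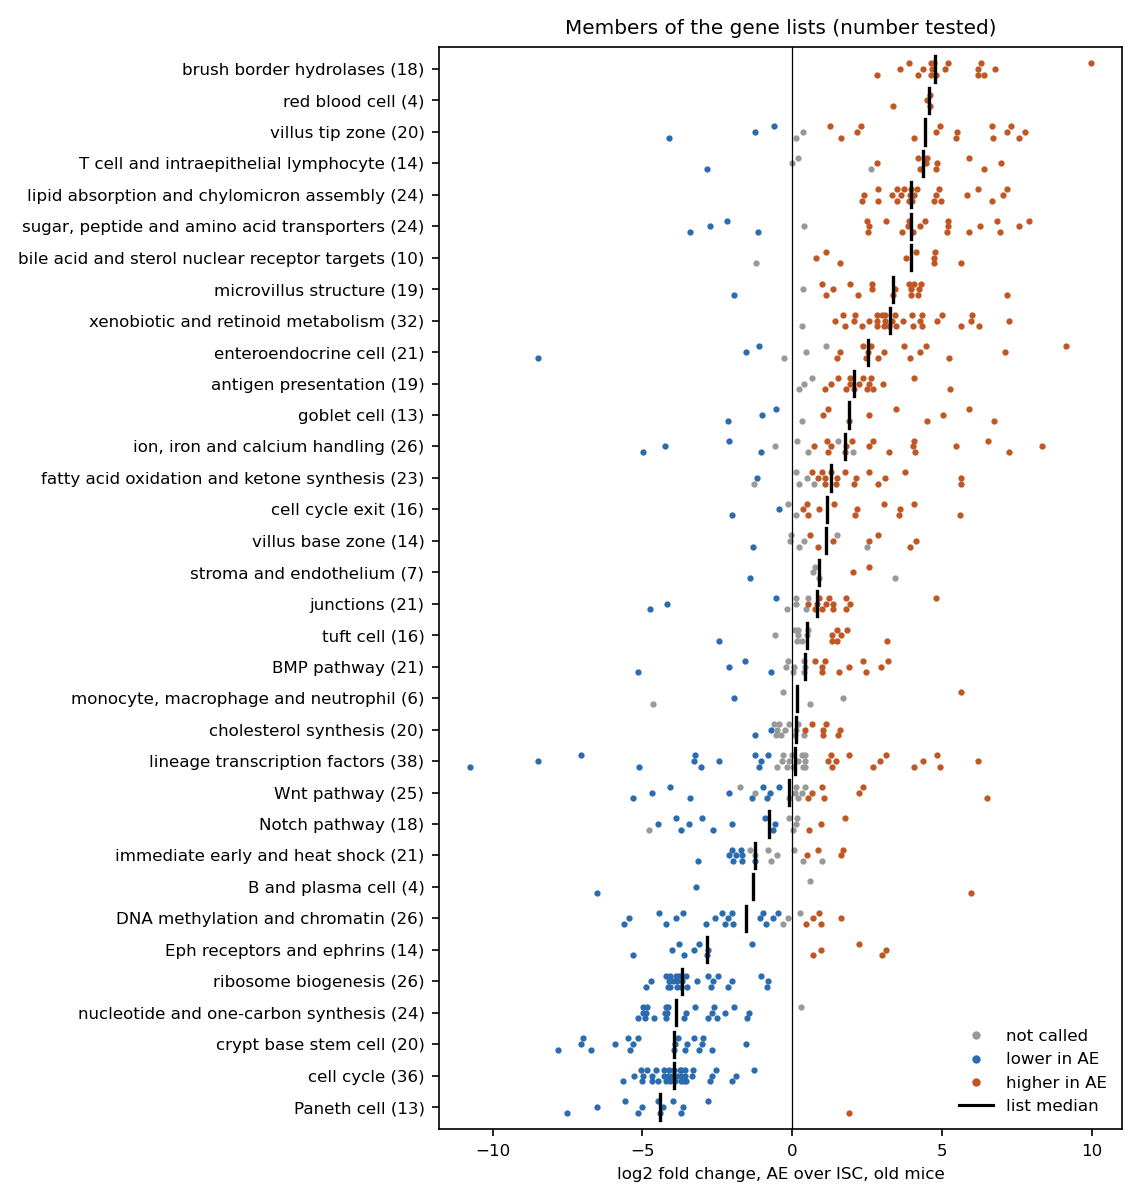
Log2 fold change of AE over ISC in old mice for each tested member of the 34 gene lists, coloured by call, with the list median as a black bar and the number tested in brackets. Stem cell, cell cycle, nucleotide and ribosome biogenesis lists lie wholly or almost wholly to the left, brush border and lipid absorption lists wholly to the right, and Wnt, cholesterol and transcription factor lists straddle 0.

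Among genes with non-overlapping groups and a mean of at least 50 CPM in the higher group, the 12 that rose most were led by a gene of tryptophan breakdown. Ido1, indoleamine dioxygenase, had 3, 3 and 2 reads in the ISC libraries and 345, 195 and 162 CPM in AE, a ratio of summed levels of 2240 (95% exact binomial interval 1140 to 5190, counting error alone). Nts, the gut hormone neurotensin, was at 0.764, 0 and 2.51 CPM in ISC and 1026, 329 and 522 in AE (9.14, SE 0.93). Clca4a, of a family linked to chloride conductance, was at 0.962, 1.38 and 4.66 CPM in ISC and 246, 729 and 1229.5 in AE (8.31, SE 0.83). The rest of the rises were 2010109I03Rik, Slc5a12, Cubn (cubilin, an uptake receptor), Pmp22 (a membrane protein), Lama3 (a laminin chain), Susd2, Gm10680, Apol9a and the nucleoside carrier gene Slc28a2, with log2 fold changes of 7.92 to 7.56.

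The 12 that fell most were led by Gkn3 (-7.36, SE 0.63), a gastrokine, at 58.7, 119 and 40.1 CPM in ISC and 0.182, 0.971 and 0.104 in AE. Ascl2, Lgr5, Olfm4 and Smoc2 stood among the 12 as described. Ifitm3, an interferon-induced membrane protein, was at 229, 151 and 122 CPM in ISC and 1.63, 3.44 and 0.518 in AE (-6.45, SE 0.49). Prelp, a matrix proteoglycan, changed by -6.36 (SE 0.29), Slc14a1, a urea transporter, by -5.93 (SE 0.41), and AY761184, a Paneth cell defensin-like gene, by -5.90 (SE 0.48). The remainder were of the cell cycle: Dtl (-5.90, SE 0.46) and Mcm3 of DNA replication, and Stmn1 (-5.78, SE 0.23), which destabilises microtubules in mitosis.

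Markers of other cell types were not equal in the 2 sorts. Goblet cell genes were higher in AE for 9 of 13 (69.2%, beside 30.0% of all genes) and lower for 3 (23.1%, beside 34.1%). Only 1 was lower without ISC library 1 or AE library 1. Log2 fold changes in the list ran from -2.16 to 6.73, and it summed to 35290 to 52350 CPM in AE and 1705 to 2225 in ISC. Muc2, the gel-forming mucin, was at 92.1, 88.3 and 155 CPM in ISC and 3756, 3676 and 3479 in AE (5.02, SE 0.32), and Zg16, a lectin of goblet granules, rose by 6.73 (SE 0.37). Enteroendocrine genes were higher for 15 of 21 (71.4%, beside 30.0%) and lower for 3 (14.3%, beside 34.1%). Their sums were 4469 to 9454 CPM in AE and 403 to 1097 in ISC. Chga, a granule protein of these cells, was at 119.9, 74.9 and 38.1 CPM in ISC and 1631, 1034 and 862 in AE (3.92, SE 0.44). Neurog3, the factor of their progenitors, was at 37.6, 26.6 and 10.04 CPM in ISC, and AE had 0, 0 and 0.207.

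Paneth cell genes went the other way, with 12 of 13 lower in AE (92.3%, beside 34.1% of all genes) and 1 higher (7.69%, beside 30.0%). Their sums were 63.6 to 105 CPM in AE against 686 to 1201 in ISC. Lyz1, the Paneth cell lysozyme, was at 215, 192 and 443 CPM in ISC and 9.53, 30.1 and 14.5 in AE (-3.97, SE 0.47). Defensin genes are near-identical copies whose reads may be shared. Of 16 tuft cell genes 7 were higher (43.8%, beside 30.0% of all genes) and 1 lower, with a median log2 fold change of 0.50 that was 0.16 without ISC library 5 and 0.76 without ISC library 3. None was lower without ISC library 3, AE library 1 or AE library 5, and 2 were without ISC library 5. Dclk1, their defining kinase, was at 55.5, 59.9 and 26.0 CPM in ISC and 54.6, 60.1 and 61.7 in AE (0.32, FDR = 0.32).

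Blood and stromal transcripts were scarce in both. T cell and intraepithelial lymphocyte genes summed to 24.1 to 65.9 CPM in AE and 6.27 to 7.93 in ISC. Of 14 tested, 10 were called higher (71.4%, beside 30.0% of all genes) and 1 lower (7.14%, beside 34.1%). Cd8a, the co-receptor of these cells, was at 4.27, 2.65 and 1.24 CPM in AE. All 4 red blood cell genes tested were called higher, beside 30.0% of all genes, and 1 was called without AE library 1. The list summed to 19.8, 8.03 and 0.311 CPM in AE libraries 1, 3 and 5 and at most 0.881 in ISC. For monocytes, macrophages and neutrophils 6 of 17 genes could be tested (1 higher, 1 lower), for B and plasma cells 4 of 13 (1 higher, 2 lower) and for stroma and endothelium 7 of 16 (2 higher, 1 lower), with sums of at most 24.1 CPM in any old library. Of those tested, 16.7%, 25% and 28.6% were higher and 16.7%, 50% and 14.3% lower, beside 30.0% and 34.1% of all genes. Without AE library 3 no stroma or endothelium gene was called. In that list 1 gene was higher and none lower without ISC library 1, and 1 higher and 1 lower without ISC library 3, without AE library 1 or with paired libraries blocked. Without ISC library 5 or AE library 5, 3 were higher and 1 lower. No monocyte, macrophage or neutrophil gene was called higher without AE library 1 or AE library 3, 2 were without ISC library 5, and no B or plasma cell gene was called higher without AE library 1. Csf1r, C1qa, Cd79a, Col1a1 and Cdh5, which define these cells, had under 10 reads over the 6 libraries. The part of any of these cell types in the differences above was not tested.

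**Figure D4:**
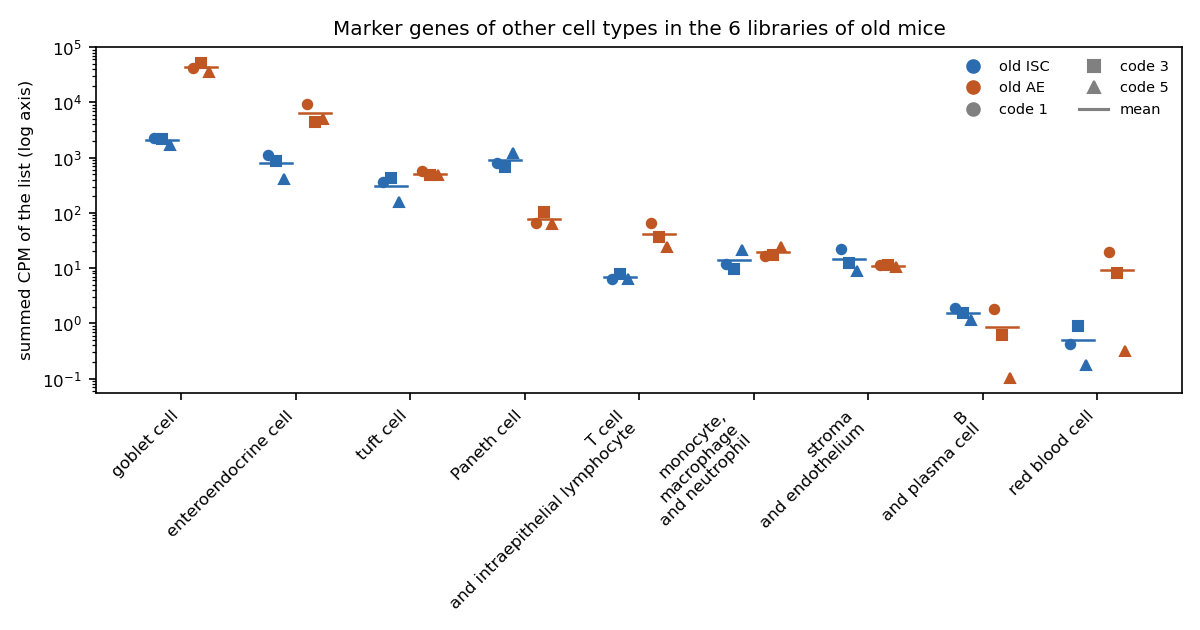
Summed CPM on a log axis of the marker genes of 9 other cell types in each old ISC (blue) and AE (orange) library, with the symbol giving the library code and the bar the mean. Goblet and enteroendocrine sums are higher in AE (35290 to 52350 and 4469 to 9454 CPM), Paneth sums are higher in ISC, and blood and stromal sums stay below 100 CPM.

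Stress and immediate early genes, which respond to tissue handling, were lower in AE for 9 of 21 (42.9%, beside 34.1% of all genes) and higher for 4 (19%, beside 30.0%). The median log2 fold change was -1.25, and -0.594 without both libraries of code 1. Egr1 was at 247, 111 and 186 CPM in ISC and 54.3, 32.5 and 52.4 in AE (-1.97, SE 0.30), and the chaperone gene Hsph1 changed by -3.14 (SE 0.32). Fos had overlapping groups (0.37, FDR = 0.32), and Junb rose by 1.64 (SE 0.21). The part of handling in other differences was not tested.

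The same contrast in young mice gave 4623 genes higher in AE (27.7% of 16681 tested) and 4241 lower (25.4%). Of the 15581 genes tested at both ages, 4132 were called higher at both, 4108 lower at both and 0 in opposite directions. Of the genes called higher in old mice 86.9% were called so in young, and of those called higher in young 89.4% were called so in old. For genes called lower these shares were 76.0% and 96.9%. Replicates varied more in young mice, with a biological coefficient of variation of 0.317 against 0.236, and the counts of calls at the 2 ages are therefore given side by side without a comparison.

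List medians were nearer 0 in young mice for some lists and farther in others. The median log2 fold change was -3.94 in old and -2.81 in young for the cell cycle, -3.68 and -2.83 for ribosome biogenesis, -3.94 and -3.57 for stem cell genes, and 4.77 and 3.74 for brush border hydrolases. It was 2.51 in old and 3.67 in young for enteroendocrine cells, 1.90 and 2.29 for goblet cells, 1.15 and 1.496 for cell cycle exit, 1.11 and 1.54 for the villus base and 0.41 and 0.90 for the BMP pathway. Summed cell cycle genes reached 1326 CPM and stem cell genes 984 CPM in young AE library 2, against 344 to 567 and 239 to 456 in the other young AE libraries and 386 to 429 and 277 to 362 in old AE. Hydrolases summed to 2503 to 4673 CPM in young ISC and 1072 to 3102 in old ISC. T cell genes had a median of 4.36 in old and 0.95 in young. In young mice 1 was called higher and 2 lower, and the sums were 14.1 to 31.9 CPM in young ISC. None of these differences between lists was tested, and CPM were scaled separately at each age.

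A test of the difference itself, over all 12 libraries, called 1 of 17377 genes (0.00575%), and 757 had an unadjusted p under 0.05 (4.36%). The gene was Adora2b, an adenosine receptor (chr11:62248984-62266453). In old mice it had 0.1698, 0.441 and 0.314 CPM in ISC and 31.3, 34.9 and 36.9 in AE, and in young mice 1.48, 1.96 and 1.82 in ISC and 26.6, 29.5 and 30.8 in AE. CPM were scaled separately at each age, so old and young levels are not on a common scale. On these scales all 3 young ISC libraries lay above all 3 old ones. The AE libraries of the 2 ages lay close, with 30.8 CPM in the highest young and 31.3 in the lowest old one. AE over ISC gave a log2 fold change of 6.88 (SE 0.30) in old and 4.04 (SE 0.22) in young mice, a difference of 2.91 (SE 0.35, edgeR quasi-likelihood test, FDR = 0.028). Leaving out 1 library took the FDR of Adora2b over 0.05 in 9 of 12 cases (0.051 to 0.22), while DESeq2 gave 3.61e-08. With paired libraries blocked 21 genes were called, all with a larger rise in old mice, among them Slc28a2 (3.56, SE 0.31), Clca4a (3.50, SE 0.37) and Ido1 (3.54, SE 0.47).

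**Figure D5:**
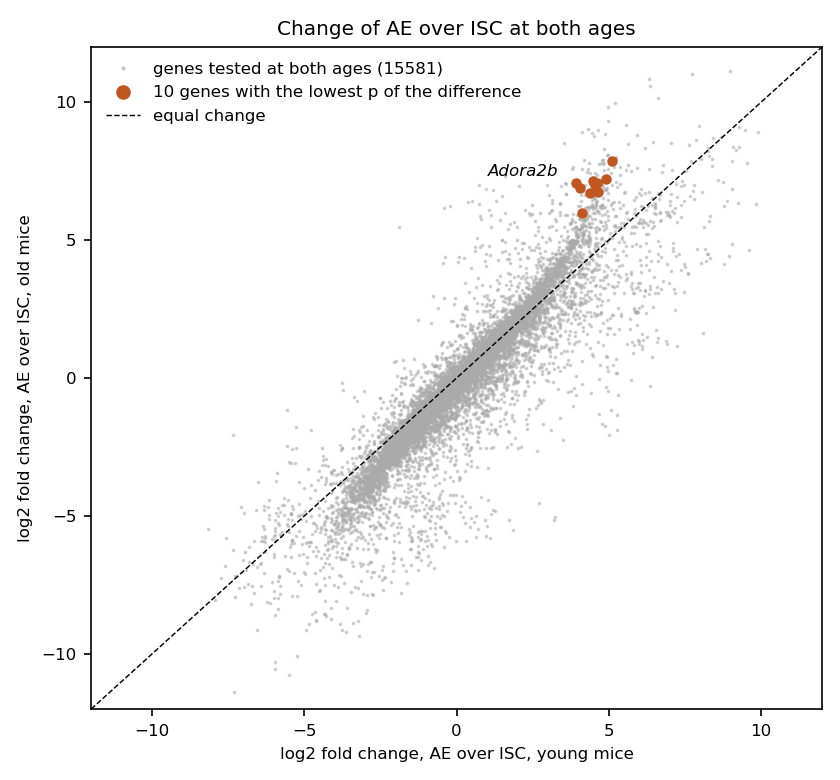
Log2 fold change of AE over ISC in old mice against that in young mice for the 15581 genes tested at both ages, with the 10 genes of lowest p for the difference in orange and equal change as a dashed line. Most genes follow the line, and the 10 genes lie above it at old changes of 5.97 to 7.89.

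The 9 genes next in p were not called (FDR = 0.28 to 0.72). They were Aldh4a1 (proline breakdown), Tmigd1, Unc93a, Slc5a12, Slc13a2 (a citrate carrier), Hes2, Sema6a, Pdzk1 and Stk10, and all had a larger rise in old mice. Pdzk1 was at 2.97, 7.99 and 6.54 CPM in old and 26.1, 15.4 and 50.9 CPM in young ISC, and 757, 835 and 871 in old and 588, 552 and 929.6 in young AE. Slc13a2 was at 2.24, 5.07 and 4.48 CPM in old and 12.975, 14.04 and 12.1 in young ISC, with AE at 726, 597 and 418 in old and 305, 574 and 287 in young mice. For both genes, with CPM scaled separately at each age, the young ISC libraries lay above the old ISC libraries and the AE libraries overlapped between ages.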

How the data were processed

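Gene counts of 12 libraries (3 AE and 3 ISC at each age) were used. Per the labels and the study's methods, the authors made poly(A) directional libraries, trimmed reads with Trim Galore 0.4.4, aligned them with HISAT2 2.1.0 to GRCm38 and deposited raw read counts per gene. The annotation release is not given in the sources used here. Columns were grouped by their own names, since library codes and titles disagree, and no column went unmapped. The study's methods list 3 animals at each age, while the labels tie no library to an animal, so p-values measure the spread between these libraries.

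Genes reaching 10 counts in total were scaled by TMM and tested in R 4.3.3 with the quasi-likelihood test of edgeR 4.0.16 (two-sided, Benjamini-Hochberg adjusted p, called FDR, under 0.05), separately in old and young mice, and over all libraries for the difference between ages. CPM are TMM-scaled separately in old and young libraries, and RPKM divide mean CPM by the exon length of GENCODE M21. The floor was 3 counts per library, and floors and intervals cover counting error only, since PCR copies were not marked. The scripts were tested on simulated data. Promoters came from the RefSeq table of GRCm38.p6, matched by symbol with a start within 1000 bases, for 10257 of 15841 symbols (64.7%), and motifs were searched on both strands. Shares were counted from 250 bases before to 50 bases after the start, whereas printed sequences hold only the 250 before. Lgr5, Apoc3, Ido1 and Clca4a had no entry.

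Libraries of the same code deviated together (correlation 0.149 to 0.256 in old and 0.14 to 0.286 in young mice), more than those of different codes, so the code was taken to pair libraries and was blocked as an alternative. Other alternatives were DESeq2 1.42.0, other scaling and filters, a fit on all 4 groups and leaving out libraries.

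The lists and members were chosen with earlier results of these data known. Values are given for the 5 markers, for some called list members with large changes (up to 4 in a direction) and for those defining a list. The members with the largest change in a list were not always among those named. Values also cover the 12 largest rises and falls with separate groups and at least 50 CPM. Also covered are the 10 genes with the largest share of counts in each cell type. The last set is the 10 genes of lowest FDR in the difference between ages. Further members were chosen after their values were seen, to show members that fell or did not pass. Some list members are not reported here by name.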

Additional observations from a re-analysis of the deposited data

Results flagged for a closer look

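Adora2b, an adenosine receptor gene, stood out because its change of AE over ISC differed between old and young mice by the test of the difference itself (2.91 on the log2 scale, SE 0.35, edgeR quasi-likelihood test, FDR = 0.028). The estimate ranged from 2.54 to 3.21 over the alternatives. All 3 old ISC libraries had 6 to 8 reads of the gene, which makes the old ISC level the least precise of the 4 group levels.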

How the results depend on the processing

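The number of genes called higher in AE in old mice was 4224 to 4722 when 1 library was left out and 4408 to 5065 under the other alternatives, and the number called lower 4817 to 5342 and 5002 to 5720. In young mice these were 3565 to 4258 and 4156 to 4974 for higher, and 3475 to 4337 and 4089 to 4648 for lower. Without both old libraries of code 1, 3 or 5 the numbers were 3897 and 4418, 3804 and 4457, and 4594 and 5069. The share of called genes that were higher was 46.8%, and 44.0% to 50.1% over the alternatives in old mice. The difference between ages is the result that changed most: 1 gene was called, 43 with DESeq2 (40 with a larger rise in old mice and 3 with a smaller one), and 0 to 3 when 1 library was left out, with 0 in 9 of 12 cases and 3 without old ISC library 5. The cause was not tested.

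With the replicate block, which pairs libraries by code, 4987 genes were higher and 5526 lower in old mice and 21 differed between ages. Of 10617 values for 668 list members and other named genes, 10150 kept their call or lack of one, 312 lost the call and 155 gained it. Among genes called in the main fit or the alternative, 0 values changed sign. Sign changes of genes called in neither fit were not counted. The Wnt list median (-0.11) ranged from -0.182 (without old AE library 3) to 0.074 (without old ISC library 5) when 1 library was left out, and was 0.123 without both libraries of code 5. The median of the monocyte, macrophage and neutrophil list (0.14, 6 genes) was -0.633 with filterByExpr, -0.499 without old AE library 1, 1.08 without old ISC library 5, -0.111 without old AE library 5 and -0.139 without both libraries of code 1. With filterByExpr 5 T cell and intraepithelial lymphocyte genes were called higher, against 10. Genes under 1 CPM are limited by depth, and 35.8% of them were called.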

Other observations

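In some genes the libraries of the same code were extreme in both old cell types. Reg1 and Slc40a1 were highest in library 3 of both. Slc28a2, Clca4a and Pmp22, all higher in AE, were lowest in library 1 and highest in library 5 in both cell types, with Pmp22 at 1.02, 3.42 and 6.00 CPM in ISC and 359.9, 818 and 1063 in AE. These were chosen after their values were seen.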
